A study of Homo sapiens with 16 samples.

Results

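The 9 pyroptosis genes followed here were measured by H3K27ac, the acetylation that histone H3 carries at promoters and enhancers in use, in THP-1 cells, a human monocytic leukemia line. The genes were CASP1, CASP4, CASP5 and CASP8 among the caspases, GSDMD and GSDME among the gasdermins, and NLRP1, NLRP3 and PYCARD among the inflammasome parts. Their regions were all rows of the table whose nearest gene was 1 of these 9 genes and whose centre lay within 50000 bp of an annotated start site, which gave 58 of 151654 regions. Each region is a window of 1000 bp centred on an ATAC-seq peak, and it is named here by gene and by the signed distance of its centre to the nearest start site, negative upstream. The study asked how USP18, an enzyme that removes the ubiquitin-like protein ISG15 and restrains type I interferon signaling, shapes the chromatin response to interferon. The 4 groups held 2 libraries each, which the design text calls biological replicates. They were WT cells carrying Cas9 only, untreated or given IFNα at 1000 U/ml for 6 h, and USP18-/- cells edited by CRISPR, untreated or given the same IFNα. The USP18-/- cells were isolated after editing of the same line, and the labels do not name a clone, so the loss of USP18 and the history of an edited line cannot be told apart in any comparison of genotypes. The depth was 9046141 to 12935453.5 tags in regions per library.

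Pyroptosis is a lytic form of cell death that releases cytokines and is prominent in cells of the monocyte and macrophage lineage. In the canonical route a sensor such as NLRP1 or NLRP3 recruits the adaptor ASC, encoded by PYCARD, and activates caspase-1, which matures IL-1β and cleaves gasdermin D so that its freed part forms pores in the plasma membrane. Caspase-4 and caspase-5 sense cytosolic lipopolysaccharide and cleave gasdermin D directly. Caspase-8 starts extrinsic apoptosis and can also cleave gasdermin D, and gasdermin E is cleaved by caspase-3.

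Interferon acts on chromatin through the factors ISGF3, which binds the interferon-stimulated response element (ISRE), and STAT dimers, which bind the GAS element. The hg38 sequence of every window was searched on both strands for the ISRE core, GAAA followed by any 2 bases and GAAA, for GAS, TTC followed by any 3 bases and GAA, and for the NF-κB consensus, each in the whole window. The 5 sequences that follow are stretches of 300 bases, 5′ to 3′, with ISRE core and GAS matches in capitals, and they are shown because their windows gained H3K27ac in IFN treated USP18-/- cells. The CASP8 and NLRP3 windows among them were picked by that readout, the first as the CASP8 window with the smallest adjusted p between genotypes with IFN and the second as the raised NLRP3 window that holds an ISRE core, so their motifs are a description. The first is a CASP8 promoter on the + strand (RefSeq, GRCh38.p14, chr2:201233213-201233512), whose ISRE core spans the start site and lies in the -25 bp window. The next is the centre of the CASP8 +6341 bp window in an intron of the gene (hg38, + strand, chr2:201239634-201239933). The promoters of neighbouring paralogs come after it, CASP5 (RefSeq, GRCh38.p14, - strand, chr11:105023119-105023418) and CASP4 (RefSeq, GRCh38.p14, - strand, chr11:104968525-104968824). The last holds the final 300 bases of the NLRP3 -8771 bp window upstream of the gene (hg38, + strand, chr1:247407586-247407885).
CASP8 promoter: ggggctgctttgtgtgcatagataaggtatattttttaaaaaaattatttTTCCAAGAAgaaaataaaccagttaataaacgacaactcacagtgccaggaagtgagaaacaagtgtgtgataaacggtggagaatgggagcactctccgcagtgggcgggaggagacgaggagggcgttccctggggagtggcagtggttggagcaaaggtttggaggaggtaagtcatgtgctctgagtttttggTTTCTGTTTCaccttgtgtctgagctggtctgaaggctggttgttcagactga
CASP8 +6341 bp window: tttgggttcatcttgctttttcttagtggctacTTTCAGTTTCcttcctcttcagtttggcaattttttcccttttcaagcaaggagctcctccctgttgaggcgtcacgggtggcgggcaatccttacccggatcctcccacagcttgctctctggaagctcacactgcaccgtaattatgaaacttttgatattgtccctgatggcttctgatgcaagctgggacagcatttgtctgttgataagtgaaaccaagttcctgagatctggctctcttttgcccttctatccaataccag
CASP5 promoter: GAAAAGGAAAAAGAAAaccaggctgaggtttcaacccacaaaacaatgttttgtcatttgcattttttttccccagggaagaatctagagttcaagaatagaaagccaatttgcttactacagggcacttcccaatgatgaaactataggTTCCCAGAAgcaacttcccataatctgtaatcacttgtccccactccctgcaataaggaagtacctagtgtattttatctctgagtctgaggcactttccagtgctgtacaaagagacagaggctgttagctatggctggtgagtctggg
CASP4 promoter: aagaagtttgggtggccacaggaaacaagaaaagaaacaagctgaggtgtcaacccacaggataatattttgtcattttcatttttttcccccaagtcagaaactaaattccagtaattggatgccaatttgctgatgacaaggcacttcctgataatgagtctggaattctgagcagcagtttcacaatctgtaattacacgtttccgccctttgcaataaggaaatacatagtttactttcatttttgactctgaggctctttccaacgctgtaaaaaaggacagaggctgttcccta
NLRP3 -8771 bp window: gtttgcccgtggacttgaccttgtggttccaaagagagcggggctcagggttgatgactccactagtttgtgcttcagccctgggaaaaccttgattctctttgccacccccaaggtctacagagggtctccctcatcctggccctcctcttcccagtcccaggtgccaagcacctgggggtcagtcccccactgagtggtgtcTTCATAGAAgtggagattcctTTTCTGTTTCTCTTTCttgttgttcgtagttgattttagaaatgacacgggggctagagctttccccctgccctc
The CASP4 and CASP5 promoters aligned over 286 columns with 216 identical bases (75.5%). The overlapping pair of ISRE cores at the start of the CASP5 promoter had no match in the CASP4 promoter, which held none of the searched motifs. Of all RefSeq promoters of this length, 3.57% held an ISRE core and 7.66% a GAS match. RefSeq promoters were found for 6 of the 9 genes, CASP4, CASP5, CASP8, GSDME, NLRP3 and PYCARD.

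Of the 58 regions, 50 passed the filter of at least 10 counts in at least 2 libraries, including all 22 within 3000 bp of a start site. Counts were scaled for library size with TMM factors to the usual CPM unit, and a region was called higher or lower at an adjusted p under 0.05 from edgeR's quasi-likelihood test. CASP8 held 17 of the regions, NLRP3 11, GSDME 10, NLRP1 5, GSDMD 4, CASP1, CASP4 and PYCARD 3 each and CASP5 2. Windows overlapped in places: 20 of the 58 shared bases with another window of the set, and the set fell into 47 separate stretches. The strongest start sites were those of NLRP3 and PYCARD, with a mean of 104 CPM in the NLRP3 -4 bp window and of 85.6 CPM in the PYCARD +430 bp window. CASP5 was the weakest gene, with 1.60 CPM in its -72 bp window, and this level was close to the filter. The 8 regions not tested held 1.5 to 18.5 tags per library.

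Some properties of the libraries touch the values. At the USP18 start site the log2 IFN effect was 1.09 for WT (SE 0.16, adjusted p = 2.1e-06) and 2.44 for USP18-/- cells (SE 0.14, adjusted p = 6.3e-26). H3K27ac at a promoter does not check the deletion. All 9 myeloid markers had a tested start-site window, with mean levels from 2.23 CPM at CSF1R to 92.2 CPM at SPI1, and of the 6 genes that mark other lineages only COL1A1 had a window within 3000 bp of a start site. The myeloid markers moved both ways between genotypes. Untreated, 3 of the 9 were higher in USP18-/- cells (CD14, CEBPA and SPI1) and 1 was lower (MPO), and with IFN 2 were higher (CD14 and SPI1) and 2 lower (LYZ and MPO). MPO, a granule enzyme of immature myeloid cells, stood at 53.0 CPM in untreated WT cells, 17.5 in untreated USP18-/- cells and 4.33 in IFN treated USP18-/- cells. SPI1, which encodes the myeloid factor PU.1, stood at 67.0, 99.4 and 129.7 CPM in the same order, and CD14, the co-receptor for lipopolysaccharide, at 4.08, 7.99 and 8.77 CPM. IFN in USP18-/- cells raised SPI1 and lowered CEBPA, LYZ and MPO. The part of such shifts in the results was not tested. The median log2 difference over all tested regions was between -0.02 and 0.01 in the 5 comparisons, but among the 28847 regions within 3000 bp of a start site it was 0.31 between untreated genotypes and 0.34 between genotypes with IFN. When the TMM factors were taken from those start-site regions, the median over all regions moved to -0.33 and -0.35. Of the calls of the pyroptosis regions as higher in USP18-/- cells, 4 of 11 untreated (log2 0.45 to 1.19) and 7 of 27 with IFN (log2 0.34 to 1.13) were lost under those factors, and none of the 7 and 5 calls as lower was.

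In WT cells, IFN changed none of the pyroptosis regions past the threshold. The count was 0 higher and 0 lower of 50 with edgeR's quasi-likelihood test, against 0.647% of all tested regions higher and 0.148% lower. With a further 2-fold limit, 0 regions were counted against backgrounds of 0.343% and 0.0389%. An unadjusted p under 0.05 was reached by 4 regions, all higher (CASP8 -326 bp, CASP8 -25 bp, GSDMD +28 bp and NLRP1 -13 bp). The share of all tested regions at that limit was not counted. DESeq2 called 0 higher and 0 lower, beside 504 higher and 18 lower of all 123276 tested regions. The median log2 difference over the 50 regions was 0.07.

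The same treatment of USP18-/- cells raised 20 of the 50 regions and lowered 6, against 12.9% higher and 11.2% lower among all tested regions. CASP8 gave 10 of the rises, CASP1 and NLRP3 3 each, GSDMD 2, and CASP4 and CASP5 1 each. The falls were 4 at NLRP3 and 1 each at GSDME and PYCARD. Over 2-fold, 10 regions rose and 1 fell, with backgrounds of 7.12% and 4.41%. The median was 0.41 on the log2 scale over the 50 regions. Start-site windows alone gave 12 higher and 3 lower of 22, against 17.1% and 11.0% of all regions at that distance. Without the second IFN treated USP18-/- library the count of rises was 14, the lowest with any library left out.

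**Figure D1:**
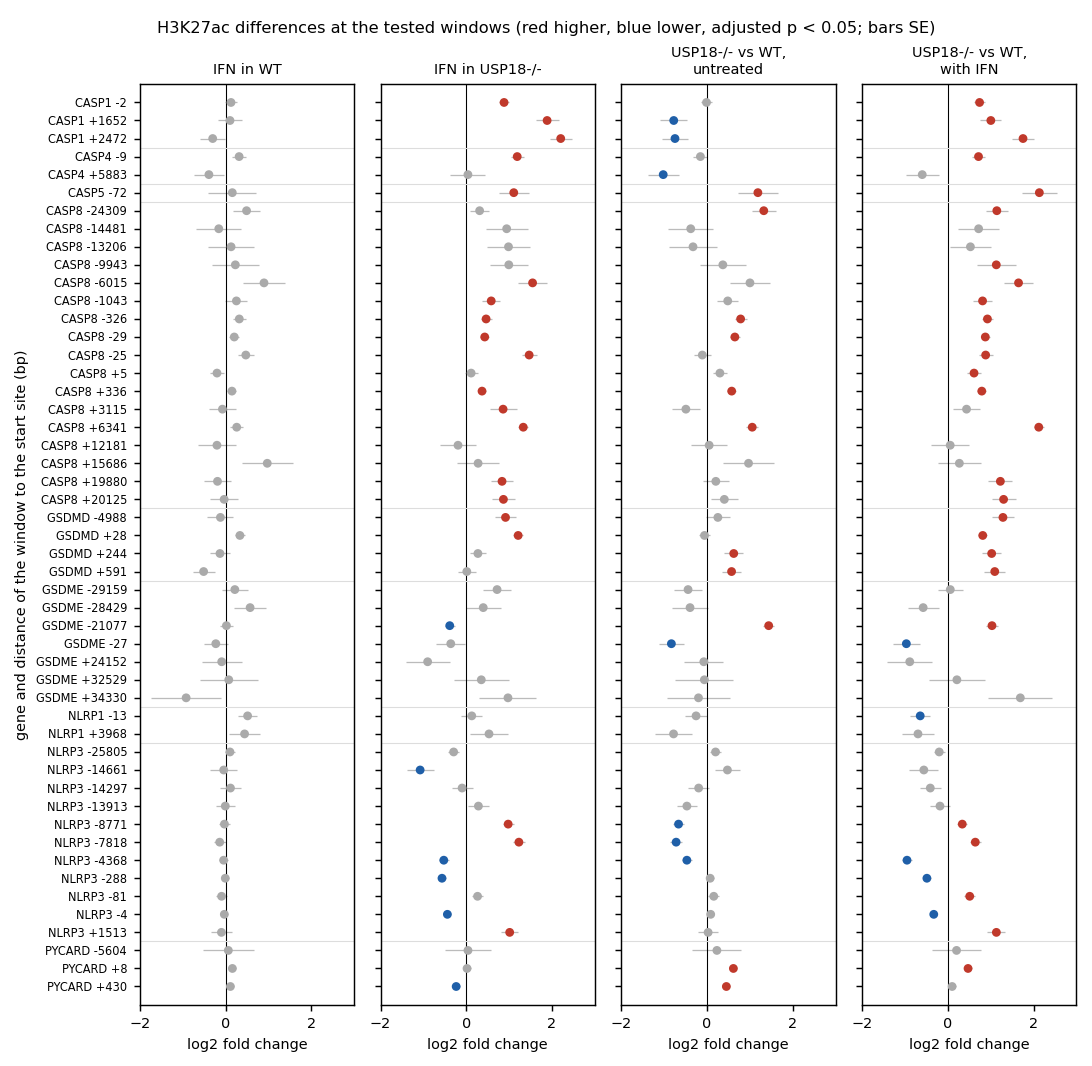
Log2 fold change of H3K27ac (horizontal axes) at each of the 50 tested regions (rows, gene and distance to the nearest start site in bp) in 4 comparisons. Points are edgeR estimates, bars are the SE, red points are higher and blue points lower at an adjusted p under 0.05. In WT cells no point is colored, and in USP18-/- cells IFN gives 20 red and 6 blue points.

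CASP1, which encodes the caspase of the canonical inflammasome, gained H3K27ac with IFN in USP18-/- cells at all 3 of its regions. In the -2 bp window (chr11:105034659-105035659, over the 5′ UTR) the levels were 18.9 and 17.8 CPM in untreated WT cells, 20.9 and 19.1 in IFN treated WT cells, 18.4 and 18.0 in untreated USP18-/- cells and 33.5 and 33.5 in IFN treated USP18-/- cells. The first 3 groups lay close together and the last stood clear above them. IFN raised this window by 1.84-fold in USP18-/- cells (log2 0.88, SE 0.13, adjusted p = 1.3e-08), against 1.09-fold in WT cells (log2 0.13, SE 0.13, adjusted p = 0.86). The difference of the IFN effects was 0.75 on the log2 scale (SE 0.18, adjusted p = 0.0018). Of the 32-base stretches of this window, 18.4% occur elsewhere on the main chromosomes. Part of its tags may thus not be unique to CASP1, which lies beside closely related CARD genes. The share was over 20% in 9 tested windows and highest at GSDMD -4988 bp (46.3%). Among the others were CASP8 -326 bp (20.3%), GSDMD +28 bp (21.3%), NLRP3 +1513 bp (24.9%) and NLRP3 -81 bp (29.8%).

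The intronic CASP1 windows changed more than the promoter. At +2472 bp (chr11:105032185-105033185) the values were 4.56 and 2.64 CPM in untreated WT cells, 2.48 and 3.29 with IFN, 2.10 and 2.13 in untreated USP18-/- cells and 10.9 and 8.64 in IFN treated USP18-/- cells. Untreated USP18-/- cells were lowest and treated USP18-/- cells highest. The rise in USP18-/- cells was 4.60-fold (log2 2.20, SE 0.26, adjusted p = 1.7e-11), the largest of the 50 regions, and the difference of the IFN effects was 2.50 (SE 0.39, adjusted p = 7.6e-07). At +1652 bp the rise was 3.69-fold (log2 1.88, SE 0.27, adjusted p = 1.6e-08) and the difference of effects 1.78 (SE 0.40, adjusted p = 0.00051). Before IFN, both windows were lower in USP18-/- than in WT cells, by log2 values of -0.75 and -0.78 with adjusted p values of 0.049 and 0.044. Both of these genotype calls were lost when single libraries were left out and with DESeq2. The +1652 bp window held an ISRE core and a GAS match, and the +2472 bp window held neither.

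CASP4 and CASP5, the lipopolysaccharide sensing caspases, lie next to CASP1 on chromosome 11. In the CASP4 -9 bp window (chr11:104968107-104969107, over the 5′ UTR) the levels were 11.2 and 13.1 CPM in untreated WT cells, 14.2 and 16.2 with IFN, 12.2 and 9.67 in untreated USP18-/- cells and 26.7 and 23.2 in IFN treated USP18-/- cells. IFN raised it 2.28-fold in USP18-/- cells (log2 1.19, SE 0.15, adjusted p = 2.6e-10) and the WT estimate was 1.24-fold (log2 0.32, SE 0.16, adjusted p = 0.56). The effects differed by 0.87 (SE 0.22, adjusted p = 0.0026), a call that was lost without the second untreated WT library, where the difference was 0.72. The intronic +5883 bp window did not follow the promoter. Its IFN difference was 0.04 in USP18-/- cells, and it was lower in untreated USP18-/- than in WT cells by a log2 value of -1.02 (SE 0.36, adjusted p = 0.021), a call lost when any untreated library was left out.

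CASP5 started from a low level. Its -72 bp window (chr11:105022740-105023740) held 0.830 and 0.546 CPM in untreated WT cells, 0.497 and 1.03 in IFN treated WT cells, 1.58 and 1.55 in untreated USP18-/- cells and 3.74 and 3.01 in IFN treated USP18-/- cells. The order was WT, then USP18-/-, then USP18-/- with IFN, and the WT groups overlapped. IFN raised it 2.15-fold in USP18-/- cells (log2 1.11, SE 0.35, adjusted p = 0.012). Between genotypes it was 2.28-fold higher untreated (log2 1.19, SE 0.47, adjusted p = 0.044) and 4.40-fold higher with IFN (log2 2.14, SE 0.41, adjusted p = 8.0e-06). The IFN call and the untreated genotype call were lost with DESeq2 and when either untreated USP18-/- library was left out, the second of them also with the factors from start-site regions, where it was 0.88, and the difference of the IFN effects, 0.95 (SE 0.67, adjusted p = 0.45), did not pass.

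**Figure D2:**
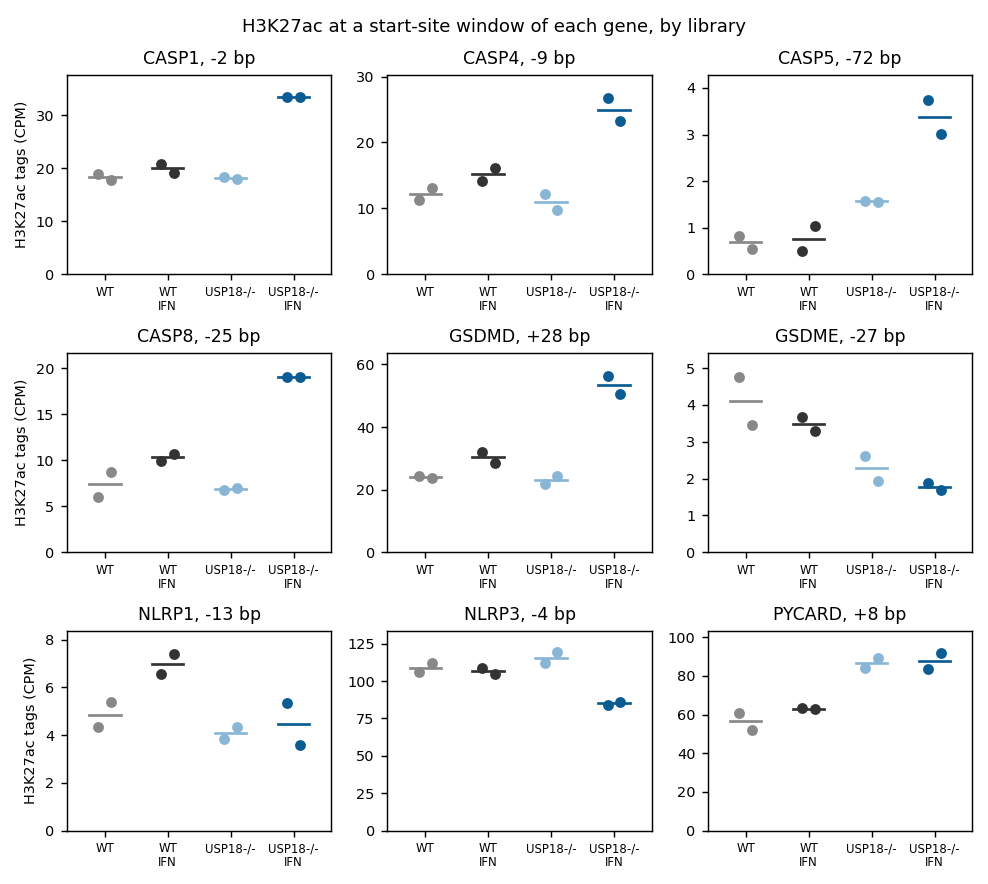
H3K27ac in CPM (vertical axes, from 0) in a start-site window of each of the 9 genes, for the 2 libraries of each group (points) with the group mean (line). Each panel takes the tested window within 100 bp of a start site that lies first along the chromosome, and genes with several start sites have others not drawn. At CASP1, CASP4, CASP5, CASP8 and GSDMD the IFN treated USP18-/- libraries lie above the other 3 groups, and at NLRP3 they lie below them. At PYCARD both USP18-/- groups lie above both WT groups.

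CASP8, at the branch point of apoptosis, necroptosis and pyroptosis, had the most regions, and its calls were all in 1 direction. In USP18-/- cells 10 of its 17 regions rose with IFN and 0 fell, beside 12.9% and 11.2% of all tested regions. Between untreated genotypes 5 were higher and 0 lower, beside 16.9% and 16.7%, and with IFN 12 were higher and 0 lower, beside 21.3% and 19.4%. Several of the IFN rises were fragile. Those at -1043 bp (log2 0.58) and +3115 bp (log2 0.86) were lost with DESeq2 and without any single USP18-/- library. Those at -326, +19880 and +20125 bp were lost without the first untreated or the second IFN treated USP18-/- library. DESeq2 also lost the rises at +19880 and +20125 bp. The intronic window at +6341 bp (chr2:201239284-201240284) carried the clearest change. It held 11.9 and 13.9 CPM in untreated WT cells, 14.8 and 16.3 with IFN, 29.6 and 24.2 in untreated USP18-/- cells and 72.3 and 62.9 in IFN treated USP18-/- cells. The 4 groups did not overlap and each stood above the one before. The USP18-/- level was 2.08-fold the WT level untreated (log2 1.05, SE 0.14, adjusted p = 5.4e-10) and 4.36-fold with IFN (log2 2.12, SE 0.12, adjusted p = 3.0e-26). IFN raised it 2.51-fold in USP18-/- cells (log2 1.33, SE 0.11, adjusted p = 3.3e-17) and the difference of the IFN effects was 1.07 (SE 0.19, adjusted p = 7.1e-06).

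The start sites of CASP8 gave different sets of calls, and no test between their windows was made. The outermost start site (-25 bp window, chr2:201232918-201233918), whose ISRE core is shown in the first sequence above, held 6.01 and 8.74 CPM in untreated WT cells, 9.94 and 10.7 with IFN, 6.83 and 6.96 in untreated USP18-/- cells and 19.0 and 19.1 in IFN treated USP18-/- cells. Here the untreated genotypes overlapped and IFN raised the USP18-/- level 2.76-fold (log2 1.47, SE 0.17, adjusted p = 2.6e-11), with a difference of IFN effects of 0.99 (SE 0.26, adjusted p = 0.0037) that was 0.69 and no longer past the threshold without the second untreated WT library. Around the internal start site, the overlapping -326, -29 and +336 bp windows were already higher in untreated USP18-/- cells. The +336 bp window had 35.7 and 33.6 CPM in untreated WT cells, 37.0 and 39.7 with IFN, 50.9 and 52.2 in untreated USP18-/- cells and 65.7 and 67.3 in IFN treated USP18-/- cells. Its genotype difference was 0.58 untreated (SE 0.10, adjusted p = 3.3e-06) and 0.79 with IFN (SE 0.10, adjusted p = 1.7e-10), and IFN added 0.37 in USP18-/- cells (SE 0.10, adjusted p = 0.0021), a call lost when counts were scaled by their sum. For these 3 windows the difference of the IFN effects was 0.14 to 0.23 and did not pass the threshold. The third start site (+5 bp window) was 0.61 higher in USP18-/- cells with IFN (SE 0.16, adjusted p = 0.0012), a call lost with the factors from start-site regions, where the value was 0.26.

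**Figure D3:**
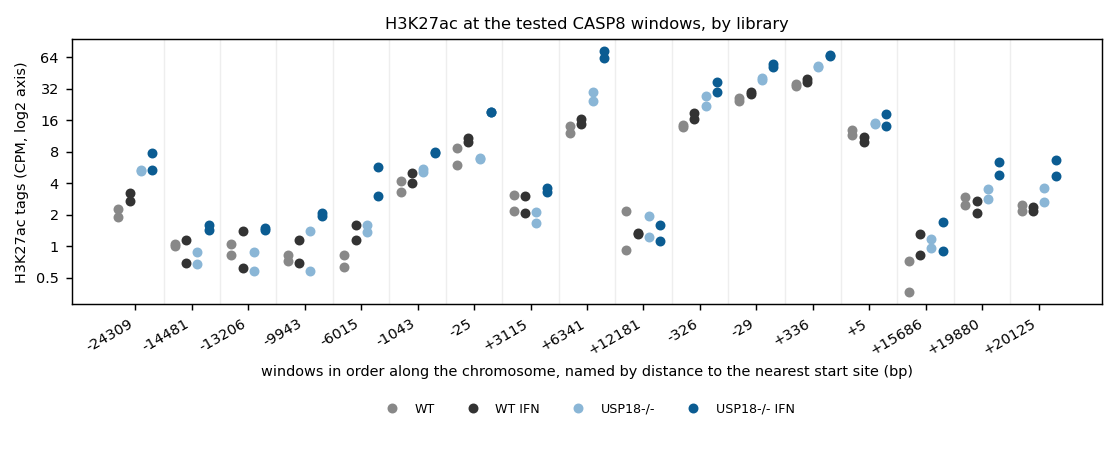
H3K27ac in CPM (vertical axis, log2 scale) in the 17 CASP8 windows for each library, in order along the chromosome and labelled by distance to the nearest CASP8 start site in bp. The +6341 bp window climbs from 11.9 to 72.3 CPM across the 4 groups. At -25 bp the IFN treated USP18-/- libraries are the highest, and the IFN treated WT libraries lie between them and the untreated libraries.

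Of the windows assigned to CASP8, 5 lie inside CASP10, the neighbouring initiator caspase gene, by the GENCODE annotation of their centres. The -24309 bp window, in a coding exon of CASP10, was 1.32 higher in untreated USP18-/- cells (SE 0.28, adjusted p = 8.2e-05) and 1.14 higher with IFN (SE 0.26, adjusted p = 0.00013). At -6015 bp, in a CASP10 intron, IFN raised H3K27ac by 1.55 in USP18-/- cells (SE 0.34, adjusted p = 0.00015), a call lost without the second IFN treated USP18-/- library, with 26.7% repeated 32-base stretches. These regions were kept in the CASP8 counts because the table names CASP8 as their nearest start site.

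GSDMD, the pore former cleaved by the inflammatory caspases, had an IFN call in USP18-/- cells at 1 of its start sites. With IFN, all 4 of its regions were higher in USP18-/- than in WT cells, beside 21.3% of all tested regions. The +28 bp window (chr8:143557835-143558835) held 24.3 and 23.8 CPM in untreated WT cells, 32.0 and 28.6 with IFN, 21.9 and 24.4 in untreated USP18-/- cells and 56.2 and 50.5 in IFN treated USP18-/- cells. IFN raised it 2.31-fold in USP18-/- cells (log2 1.21, SE 0.11, adjusted p = 2.9e-15), and the WT estimate was 1.26-fold (log2 0.33, SE 0.12, adjusted p = 0.27). The effects differed by 0.87 (SE 0.17, adjusted p = 3.6e-05). With IFN this window was 0.82 higher in USP18-/- than in WT cells, a call kept in every alternative. The overlapping +244 and +591 bp windows at the other start site gave no IFN call in either genotype. They were higher in USP18-/- cells by 0.62 and 0.57 untreated (SE 0.22 for each, adjusted p = 0.019 and 0.038) and by 1.02 and 1.10 with IFN (adjusted p = 4.5e-05 and 8.0e-05). The untreated pair of calls was lost with DESeq2, with scaling by the sum of counts, with the factors from start-site regions and without the second untreated library of either genotype. No test between the start sites was made. The upstream -4988 bp window rose by 0.91 with IFN in USP18-/- cells, with 46.3% repeated 32-base stretches. That call was lost with DESeq2 and without the second untreated USP18-/- library.

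GSDME, the other gasdermin, took a different course. Its start-site window (-27 bp, chr7:24756991-24757991) was low, with 4.77 and 3.46 CPM in untreated WT cells, 3.68 and 3.29 with IFN, 2.63 and 1.93 in untreated USP18-/- cells and 1.87 and 1.69 in IFN treated USP18-/- cells. Both WT groups lay above both USP18-/- groups. The genotype difference was -0.83 untreated (SE 0.30, adjusted p = 0.022) and -0.96 with IFN (SE 0.32, adjusted p = 0.010), and both calls were lost with DESeq2 and when single libraries were left out. Upstream, the -21077 bp window (chr7:24778597-24779597) went the other way, with 13.9 and 13.7 CPM in untreated WT cells, 13.3 and 14.6 with IFN, 39.6 and 35.0 in untreated USP18-/- cells and 31.5 and 25.5 in IFN treated USP18-/- cells. It was 2.71-fold higher in untreated USP18-/- cells (log2 1.44, SE 0.13, adjusted p = 2.3e-15) and 2.04-fold higher with IFN (log2 1.03, SE 0.14, adjusted p = 6.8e-10). IFN changed it by -0.39 in USP18-/- cells (SE 0.12, adjusted p = 0.010), a call lost with DESeq2 and without the first untreated or the second IFN treated USP18-/- library. The -21077 bp window lies in an exon of a noncoding gene in GENCODE, and the assignment to GSDME rests on distance alone.

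NLRP3, the sensor of many danger signals, had windows that fell and windows that rose with IFN in USP18-/- cells, 4 and 3 of its 11. Over all tested regions the shares were 11.2% lower and 12.9% higher. The -4 bp window (chr1:247415652-247416652) held 106 and 112 CPM in untreated WT cells, 109 and 105 with IFN, 112 and 119.6 in untreated USP18-/- cells and 84.3 and 86.2 in IFN treated USP18-/- cells. Only the last group stood apart, below the rest. IFN lowered the USP18-/- level by a log2 value of -0.44 (SE 0.08, adjusted p = 1.1e-05) while the WT value was -0.03, and the effects differed by -0.41 (SE 0.12, adjusted p = 0.0092), a call lost without the first untreated WT or the second untreated USP18-/- library. The overlapping -288 bp window changed by -0.57 (SE 0.09, adjusted p = 1.0e-07), with a difference of effects of -0.56 (SE 0.12, adjusted p = 0.00040). Farther upstream, the -4368 bp window had 46.1 and 44.9 CPM in untreated WT cells, 43.7 and 44.5 with IFN, 35.6 and 30.0 in untreated USP18-/- cells and 23.8 and 21.8 in IFN treated USP18-/- cells. It was lower in USP18-/- cells by -0.47 untreated (SE 0.11, adjusted p = 0.00032) and by -0.95 with IFN (SE 0.11, adjusted p = 3.3e-11), and IFN added -0.52 in those cells (SE 0.12, adjusted p = 0.00021).

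The other fall was at -14661 bp, a weak window that was picked out after its values were seen. It held 2.49 and 2.91 CPM in untreated WT cells, 2.38 and 2.88 with IFN, 3.33 and 4.26 in untreated USP18-/- cells and 1.33 and 2.25 in IFN treated USP18-/- cells. Its IFN change in USP18-/- cells, -1.08 (SE 0.31, adjusted p = 0.0059), was the 1 fall of over 2-fold among the 50 regions, and the call was lost with DESeq2 and without the second untreated or the first IFN treated USP18-/- library.

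A pair of windows between -14661 and -4368 bp rose instead. The -7818 bp window (chr1:247407838-247408838) held 22.3 and 22.6 CPM in untreated WT cells, 22.3 and 18.5 with IFN, 12.7 and 14.6 in untreated USP18-/- cells and 27.1 and 36.8 in IFN treated USP18-/- cells. It fell below WT in untreated USP18-/- cells (log2 -0.72, SE 0.15, adjusted p = 3.2e-05) and rose above WT with IFN (log2 0.64, SE 0.13, adjusted p = 3.3e-05), a call lost with the factors from start-site regions, where the value was 0.29 (adjusted p = 0.066). The IFN effect was 2.34-fold in USP18-/- cells (log2 1.23, SE 0.14, adjusted p = 7.0e-12), and the difference from WT was 1.36 (SE 0.20, adjusted p = 8.8e-08). The adjoining -8771 bp window, with its overlapping pair of ISRE cores, rose 1.97-fold (log2 0.98, SE 0.13, adjusted p = 9.6e-10) from a level that was 0.66 below WT on the log2 scale (log2 -0.66, SE 0.13, adjusted p = 2.2e-05). Its genotype difference with IFN, 0.34 (adjusted p = 0.019), became -0.017 with the factors from start-site regions. Inside the gene, the intronic +1513 bp window rose in USP18-/- cells with IFN, from 5.34 and 5.22 CPM to 9.34 and 12.0 CPM (2.02-fold, log2 1.01, SE 0.20, adjusted p = 3.8e-05). Its difference of IFN effects, 1.11 (SE 0.31, adjusted p = 0.0087), was lost as a call with DESeq2 and without the second IFN treated library of either genotype. The window of the next start site (-81 bp) gave 0.26 for IFN in USP18-/- cells (SE 0.13, adjusted p = 0.13), so 2 NLRP3 start sites had estimates of opposite sign. A test between these 2 windows was not made.

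**Figure D4:**
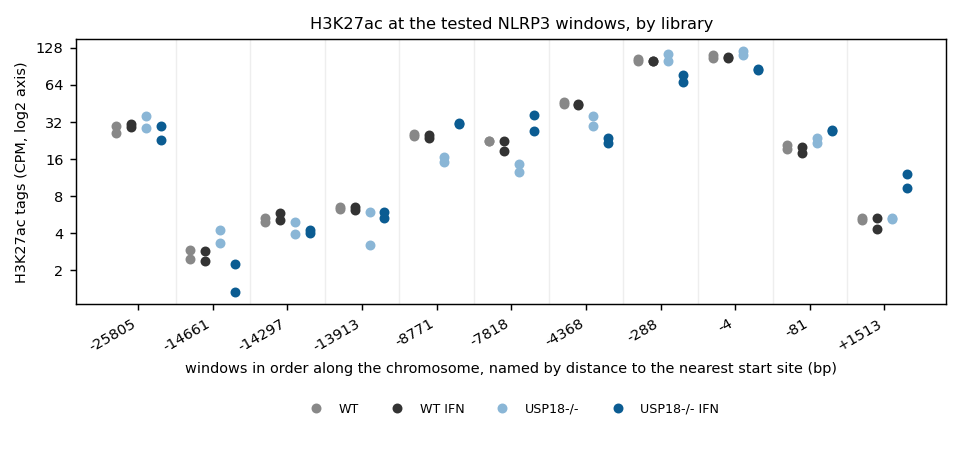
H3K27ac in CPM (vertical axis, log2 scale) in the 11 NLRP3 windows for each library, in order along the chromosome and labelled by distance to the nearest NLRP3 start site in bp. The IFN treated USP18-/- libraries are the lowest at -14661, -4368, -288 and -4 bp and the highest at -8771, -7818, -81 and +1513 bp.

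NLRP1, the sensor of protease and viral activity that is restrained by DPP9, was low and changed little. Its -13 bp window (chr17:5584025-5585025) held 4.36 and 5.37 CPM in untreated WT cells, 6.56 and 7.41 with IFN, 3.85 and 4.35 in untreated USP18-/- cells and 5.34 and 3.57 in IFN treated USP18-/- cells. The IFN treated WT libraries were the highest of the 8. With IFN, USP18-/- cells were lower by a log2 value of -0.64 (SE 0.23, adjusted p = 0.020), a call lost with DESeq2 and without the second IFN treated library of either genotype. The +3968 bp window passed in no comparison, and the other 3 NLRP1 regions were not tested.

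PYCARD, the gene of the adaptor ASC, was higher in untreated USP18-/- cells in both of its start-site windows. Its +8 bp window (chr16:31202268-31203268, over the 5′ UTR and an antisense exon) held 61.0 and 52.2 CPM in untreated WT cells, 63.4 and 62.8 with IFN, 83.8 and 89.4 in untreated USP18-/- cells and 83.5 and 91.9 in IFN treated USP18-/- cells. Both USP18-/- groups stood above both WT groups. The genotype difference was 0.62 untreated (SE 0.09, adjusted p = 5.4e-08) and 0.47 with IFN (SE 0.09, adjusted p = 9.9e-06), beside a median of 0.31 and 0.34 over all start-site regions, and with the factors from those regions the second call was lost at 0.12. IFN gave 0.02 in USP18-/- cells (SE 0.09, adjusted p = 0.93). The overlapping +430 bp window was 0.45 higher untreated (SE 0.09, adjusted p = 1.7e-05), a call lost at 0.14 with the factors from start-site regions, and its genotype difference with IFN was 0.10 (SE 0.09, adjusted p = 0.39). Its fall with IFN in USP18-/- cells, -0.24 (SE 0.09, adjusted p = 0.036), was lost with DESeq2 and without either untreated USP18-/- library.

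Between untreated genotypes, the counts over the 9 genes were 11 higher and 7 lower of 50, close to the backgrounds of 16.9% and 16.7%. Over 2-fold the counts were 4 higher and 1 lower, against 5.69% and 10.8%. The median was 0.06. Without the first untreated WT library, and likewise without the second untreated USP18-/- library, 3 regions were lower in place of 7. With the factors from start-site regions the split became 7 higher and 13 lower, while over all regions it moved from 20804 higher and 20631 lower to 10554 and 32709. Under IFN, 27 regions were higher and 5 lower in USP18-/- than in WT cells, with backgrounds of 21.3% and 19.4%, and over 2-fold 14 were higher and 0 lower with edgeR's test, against 11.3% and 13.5%. The median was 0.63. Among the 22 start-site windows, 17 were higher and 4 lower, against 40.6% and 12.4% of all start-site regions. The factors from start-site regions changed the split to 20 higher and 13 lower of 50, beside 16705 higher and 36431 lower over all regions. Comparisons of genotype and of IFN share libraries, so their counts are not independent.

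The difference of the IFN effects, tested as 1 contrast of the fit, passed for 13 of the 50 regions. In 10 the effect was more positive in USP18-/- cells, against 6.73% of all tested regions, and in 3 more negative, against 5.22%. Over 2-fold the counts were 6 and 0, with backgrounds of 4.61% and 2.55%. All 3 CASP1 regions, the CASP4 promoter, 2 CASP8 regions, the GSDMD +28 bp window and 3 NLRP3 regions made up the 10, and the 3 more negative ones were the NLRP3 -4368, -288 and -4 bp windows. CASP5, GSDME, NLRP1 and PYCARD had none with edgeR's test. The count of more negative regions was 1 without the first untreated WT library and 5 without the second IFN treated USP18-/- library.

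**Figure D5:**
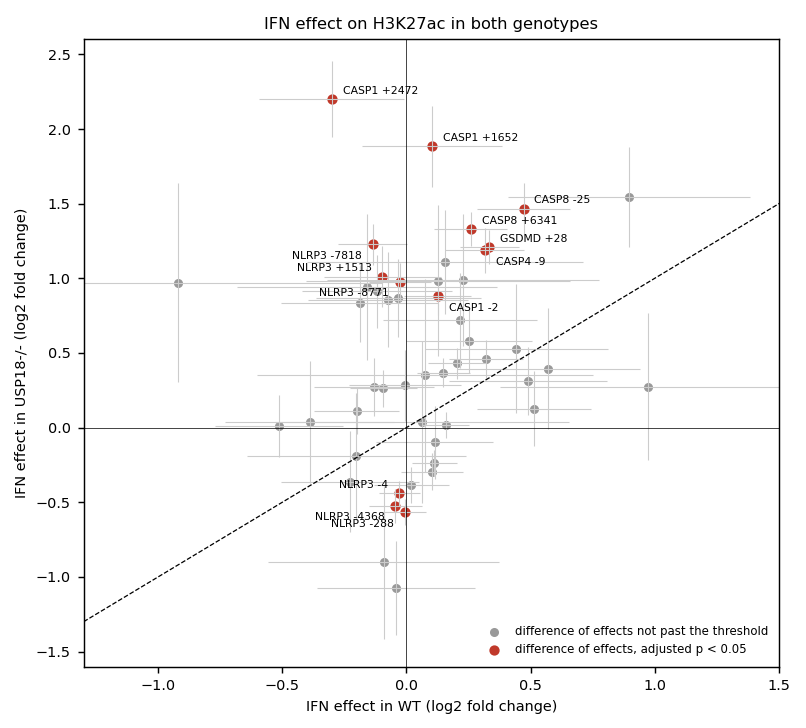
IFN effect on H3K27ac in WT (horizontal axis) and USP18-/- cells (vertical axis), as log2 fold change, at the 50 tested regions. Bars are the SE, the dashed line marks equal effects, and red points are the 13 regions whose effects differed at an adjusted p under 0.05, with 10 above the line and the 3 NLRP3 windows below it.

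Of the 20 regions that rose with IFN in USP18-/- cells, 13 held an ISRE core (65%), beside 36.3% of all 15886 regions that rose in that comparison and 17.2% of all regions in the table. These were CASP1 -2 and +1652 bp, CASP5 -72 bp, 8 CASP8 windows, GSDMD -4988 bp and NLRP3 -8771 bp. Overlapping windows share matches, and the 13 windows held 16 distinct sites. The 6 regions that fell held 0, beside 11.0% of all regions that fell. The other 7 raised windows had no match, among them CASP1 +2472 bp, CASP4 -9 bp, GSDMD +28 bp, and NLRP3 -7818 and +1513 bp. In the central 200 bp of the windows the order of the shares was the other way: 3 of the 20 (15%) held an ISRE core, beside 19.5% of all raised regions and 5.45% of all regions. GAS matches in the whole window were in 10 of the 20, beside 30.0% of all raised regions and 26.2% of all regions. The NF-κB consensus was in 2 of the 20, beside 14.0% and 13.1%. These matches describe letters in the windows and were not tested as binding sites.

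Other genes of the pathway were counted from a list of 41, of which 38 had regions within 50000 bp, 226 in all and 216 tested. The list holds further sensors, inflammasome partners, cytokines and death genes. In WT cells IFN raised 4 (1.85%) and lowered 3 (1.39%), beside 0.647% and 0.148% of all tested regions. In USP18-/- cells it raised 66 (30.6%) and lowered 7 (3.24%), beside 12.9% and 11.2%. Between untreated genotypes 57 were higher (26.4%) and 45 lower (20.8%), beside 16.9% and 16.7%. With IFN 79 were higher (36.6%) and 30 lower (13.9%), beside 21.3% and 19.4%. The difference of the IFN effects was more positive in USP18-/- cells for 43 (19.9%) and more negative for 2 (0.926%), beside 6.73% and 5.22%. Regions were clustered by gene and are not independent. AIM2 gave 9, PANX1 8 and IL1RN 6 of the 66 raised by IFN in USP18-/- cells. AIM2 also gave 13 and GZMB 7 of the 45 lower between untreated genotypes.

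AIM2 and IFI16 were taken from the list for their small adjusted p. AIM2, the cytosolic DNA sensor, reached larger changes than any tested NLRP1 or NLRP3 region. Its -330 bp window held 4.36 and 3.46 CPM in untreated WT cells, 4.27 and 4.74 with IFN, 0.525 and 0.967 in untreated USP18-/- cells and 21.4 and 19.5 in IFN treated USP18-/- cells. It started below WT (log2 -2.38, SE 0.36, adjusted p = 6.3e-08) and rose by 4.78 with IFN (SE 0.27, adjusted p = 4.3e-27). The level it rose from, in untreated USP18-/- cells, was close to the filter. A region -37073 bp from AIM2 was among the few to rise in WT cells (log2 1.73, SE 0.20, adjusted p = 6.9e-10), and it rose by 5.28 in USP18-/- cells. IFI16, the related nuclear DNA sensor, rose in its +15 bp window by 1.64 in WT cells (SE 0.16, adjusted p = 1.4e-12) and by 3.80 in USP18-/- cells (SE 0.16, adjusted p = 4.1e-35).

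Genes that act before or after the inflammasome had few tested regions each, and no test between genes was made. For IFN in USP18-/- cells, 12.9% of all tested regions were higher and 11.2% lower. In that comparison IL1B, a cytokine that caspase-1 matures, had 1 of 6 tested regions higher and 0 lower. IL18, the other such cytokine, had 0 of 3 called by edgeR's test (0 also at an unadjusted p under 0.05). The inhibitor IL18BP had 0 of 6 and the apoptotic caspase gene CASP9 0 of 4 (0 for each at an unadjusted p under 0.05), and GSDMC, another gasdermin, 0 of 14 (1 higher and 1 lower at an unadjusted p under 0.05). The share of all regions at that unadjusted limit was not counted, and none of these counts was tested against the background. The genes that follow were taken for their small adjusted p. IL1RN, the IL-1 receptor antagonist, rose in its -72 bp window by 2.20 in USP18-/- cells (SE 0.11, adjusted p = 5.8e-29), with a WT value of 0.34 (adjusted p = 0.20). PANX1, a channel that releases ATP, rose by 2.35 in its +2001 bp window (SE 0.15, adjusted p = 2.4e-23). P2RX7, the ATP receptor that triggers NLRP3, was 0.94 higher in untreated USP18-/- cells in its +11971 bp window (SE 0.08, adjusted p = 4.3e-17) and 1.30 higher with IFN. In the other direction, a region -26110 bp from GZMB, a protease of cytotoxic granules, was lower in untreated USP18-/- cells (log2 -4.21, SE 0.29, adjusted p = 3.3e-21) and lower with IFN in WT cells (log2 -1.09, SE 0.20, adjusted p = 0.00019). DPP9, the inhibitor of NLRP1, had a region at -21145 bp that was lower with IFN in WT cells (log2 -2.48, SE 0.55, adjusted p = 0.0053), from levels under 3 CPM.

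For each of the 9 genes, the gene outside the set whose start-site window had the most similar profile was found among 16095 genes, by Pearson's r of log2 CPM over 8 libraries in 4 groups. The closest were NFKBIZ for CASP1 (r = 0.995), ASCL2 for CASP4 (0.988), CCNJ for CASP5 (0.996), FLII for the CASP8 +5 bp window (0.990), PRPF3 for GSDMD (0.996), ERG for GSDME (0.982), MCM10 for NLRP1 (0.942), HIST1H2AE for NLRP3 (0.985) and ALDH16A1 for PYCARD (0.990). The points share their library scaling and fall into 4 groups, so these values are a description only.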

How the data were processed

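The 8 ChIP-seq libraries were quantified over windows of 1000 bp, each centred on a merged ATAC-seq peak. The authors aligned reads to hg38 by Bowtie2 and deposited raw HOMER tag counts, which are handled here like expected counts because only 52.2% of values are whole, and these were rounded. Per the submitters' processing notes the study used DESeq2 with HOMER.

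The filter, 10 or more counts in 2 or more libraries, kept 123276 of 151654 regions, which were scaled by TMM and fitted with 1 mean per group in edgeR 4.0.16 (limma 3.58.1, R 4.3.3). Calls came from the quasi-likelihood test at 0.05 after Benjamini-Hochberg adjustment across every tested region, and the 2-fold limit of the methods was counted beside them. The biological coefficient of variation shared by regions was 0.0747, and precision rests on 2 libraries per group and a spread shared across regions, with 9046141 to 12935453.5 tags per library.

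The members, lists and tests were chosen with earlier results of these data known. Regions named are all tested windows within 3000 bp of a start site, the window with the highest mean and the one with the smallest adjusted p in each comparison, for each gene. From the pathway list the 5 smallest adjusted p values per comparison were eligible. Others named in the text (CASP8 -24309 and -6015 bp, GSDMD -4988 bp, NLRP3 -14661 bp, and the pathway genes IL1B, IL18, IL18BP, CASP9 and GSDMC) were chosen after their values were seen.

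All value columns were matched to a sample (0 unmatched). Libraries with the same replicate number had deviations correlated at 0.0124, 0.0578, 0.00549 and 0.00186, so the number was not taken as a pairing. On simulated data for IFN in USP18-/- cells, 121 of 200 regions changed 3-fold were recovered. Among those averaging 30 or more counts 80 of 82 were recovered, and 6 unchanged regions were called.

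Motifs were searched in the given hg38 sequence (samtools 1.23.1, pysam 0.24.0), and positions were annotated with GENCODE version 44. Alternatives covered the scaling, DESeq2 1.42.0, the filter, the fitted groups, the threshold, the distance, overlapping windows, the replicate block, rounding and each library left out. Input libraries and ATAC-seq values were not analysed here.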

Additional observations from a re-analysis of the deposited data

Results flagged for a closer look

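The IFN effect differed between USP18-/- and WT cells at 13 of the 50 tested regions, by the contrast of the edgeR fit. The differences (USP18-/- minus WT, log2) were 0.75 at CASP1 -2 bp, 1.78 at CASP1 +1652 bp and 2.50 at CASP1 +2472 bp. They were 0.87 at CASP4 -9 bp, 0.99 at CASP8 -25 bp, 1.07 at CASP8 +6341 bp and 0.87 at GSDMD +28 bp. At NLRP3 they were 1.00 at -8771 bp, 1.36 at -7818 bp and 1.11 at +1513 bp, and they were negative at 3 windows, -0.48 at -4368 bp, -0.56 at -288 bp and -0.41 at -4 bp. When single libraries were omitted the value ranged from 2.07 to 2.86 at CASP1 +2472 bp, from 0.93 to 1.19 at CASP8 +6341 bp and from -0.68 to -0.47 at NLRP3 -288 bp, with the call kept each time. Of the 13 calls, 5 were lost without at least 1 library. The -4368 bp call was lost without 6 of the 8 libraries, singly, and with DESeq2. The NLRP3 +1513 bp call was lost without the second IFN treated library of either genotype and with DESeq2, the -4 bp call without the first untreated WT or the second untreated USP18-/- library, and the CASP4 -9 bp and CASP8 -25 bp calls without the second untreated WT library. NLRP3 windows thus gave differences of both signs. All 13 windows have the same 8 libraries behind them, and the CASP1 and NLRP3 sets each hold adjoining windows.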

How the results depend on the processing

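IFN in WT cells gave 0 member calls in either direction under every alternative run. Of 76 named calls, 48 passed in every alternative, 22 were lost without at least 1 library and 23 in at least 1 other alternative. The NLRP3 -8771 bp genotype difference with IFN changed sign, from 0.34 to -0.017, with TMM factors from start-site regions. Those factors gave 7 higher and 13 lower regions for untreated genotypes and 13 lower with IFN. Scaling by the sum of counts gave 9 lower regions for genotypes with IFN and 6 more negative IFN effects. The DESeq2 Wald test called 3 lower regions for IFN in USP18-/- cells, 3 for untreated genotypes and 3 for genotypes with IFN. The 2-fold limit left 10 higher and 1 lower for IFN in USP18-/- cells, 4 and 1 for untreated genotypes, 14 and 0 for genotypes with IFN, and 6 and 0 for the difference of IFN effects. With 1 window per stretch of overlapping windows, 7 were higher for untreated genotypes. Leaving out single libraries gave 14 to 20 higher and 4 to 7 lower for IFN in USP18-/- cells, 8 to 11 and 3 to 7 for untreated genotypes, 24 to 27 and 4 to 5 for genotypes with IFN, and 8 to 11 and 1 to 5 for the difference. In the central 200 bp, 8.62% of member regions held an ISRE core and 17.2% a GAS match, against 31.0% and 36.2% in the whole window. Over all regions the shares were 5.45% and 5.50% in the central 200 bp, and 17.2% and 26.2% in the whole window. Other counts moved by less than 1.5 times, and the cause of the changes in calls was not tested.

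The replicate block gave 20 higher and 6 lower regions for IFN in USP18-/- cells, 11 and 7 for untreated genotypes, 27 and 5 for genotypes with IFN and 10 and 4 for the difference, and it changed no named call. The correlations of deviations do not show pairing. Regions near the filter, such as CASP5 with about 1 CPM in WT cells, carry the widest errors, and the 8 untested regions allow no statement.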
